A study of Mus musculus with 71 samples.

Results

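The piriform cortex of mice with a flank burn was compared with that of mice given a sham procedure, using 5 burn and 5 sham libraries chosen by brain region and treatment field, 10 of the 71 libraries of the series. A further 4 piriform libraries came from mice with a skin excision, and their values are given beside the others. The study profiled RNA from the piriform cortex, hippocampus and frontal cortex to look for changes in the brain after a skin burn that is not severe. All mice were C57BL/6J, with no allele or transgene named. Burn mice received a full-thickness contact burn on the right dorsal flank, from a brass rod 19 mm across and above 90 °C, held for 10 s and covering 7 to 8% of the body surface. Excision mice lost a disc of dorsal skin cut along a 12 mm template, and the wound was later widened to the size of the burn. Sham mice were shaved on the back and not injured. All 3 groups had isoflurane anaesthesia, 0.1 mg/kg buprenorphine and, for 5 days, drinking water with 1 mg/mL paracetamol, so the drugs were common to burn and sham mice while the body site was not. The labels used here state neither age, sex nor the time from injury to tissue collection, nor whether 1 mouse gave more than 1 region. Nor do the labels say that each library is a separate animal, so the p-values measure the spread between these libraries.

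The piriform cortex is the main cortical target of the olfactory bulb. Its principal cells are glutamatergic neurons of layer 2 that receive odour input on their outer dendrites, and it borders the olfactory tubercle and striatum, the endopiriform nucleus and the amygdala. A skin burn is known to activate the adrenal axis and to raise circulating cytokines. In the brain, glucocorticoids act through a nuclear receptor that induces genes such as Fkbp5, Tsc22d3 and Plin4, and circulating cytokines can act on endothelial cells, astrocytes and microglia.

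No gene passed the test between burn and sham piriform cortex. Of 21004 genes tested with edgeR's quasi-likelihood test, 0 had a Benjamini-Hochberg adjusted p under 0.05 (0% called), and the smallest adjusted p was 0.884. At an unadjusted p under 0.05 there were 896 genes, 4.27% of those tested, where an even spread of p-values would give 1050. Of these, 435 were higher after burn (2.07% of all genes tested) and 461 were lower (2.19%). The p-values were not evenly spread, and 1327 genes lay between 0.05 and 0.1. The DESeq2 Wald test on the same genes called 1 gene, Cdc42ep4. Over all genes tested the log2 fold change of burn over sham was above 0 in 51.1% and below 0 in 48.9%, with a median standard error of 0.157.

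**Figure D1:**
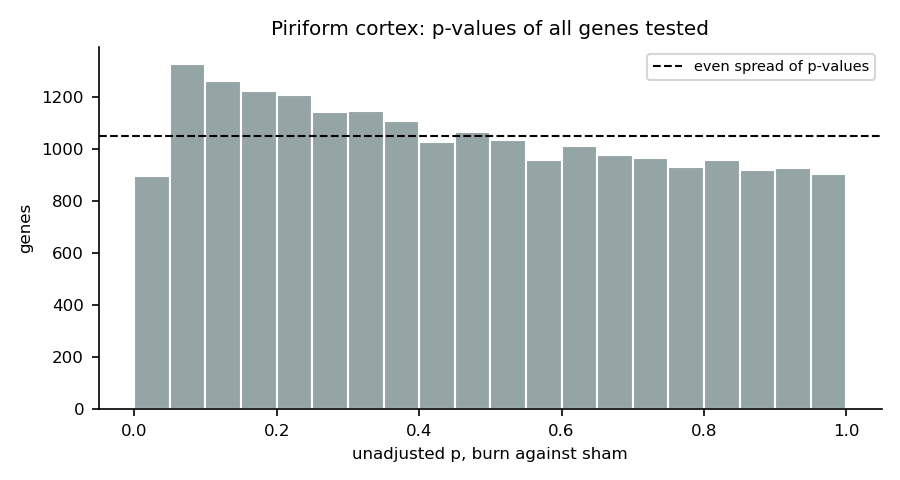
Unadjusted p-values of burn against sham for all 21004 genes tested (x axis, in bins of 0.05) and the number of genes in each bin (y axis), with a dashed line at the 1050 genes per bin of an even spread. The bin nearest 0 holds 896 genes, fewer than the line, while the bins from 0.05 to 0.4 hold 1108 to 1327 genes, more than the line.

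Total counts per library ran from 63.6 to 76.4 M (mega, counts) after burn, from 56.3 to 70.5 M after excision and from 46.8 to 67.5 M after sham. Burn libraries resembled each other more than sham libraries did: the median Spearman correlation of a library with its own group lay between 0.9894 and 0.9919 for burn and between 0.9805 and 0.9853 for sham. Sham replicates 1, 3 and 5 stood apart from the rest. Sham replicate 1 carried transcripts of the dentate gyrus and choroid plexus, sham replicate 3 was high in striatal transcripts, and sham replicate 5 had the lowest share of counts in mitochondrially encoded genes, 3.47%, against 6.86 to 8.95% in burn libraries and 8.4 to 10.4% in the other sham libraries. The title of sham replicate 2 says excision and its treatment field says sham, and the field was followed. The titles of all 14 piriform libraries say frontal cortex, against piriform cortex in the tissue and source fields. All 14 are in batch 3 of the labels, and the libraries of the other regions are in batches 1 and 2. The library numbers run in blocks by treatment, so that any effect of library order and the treatment cannot be told apart.

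The markers of the region label went both ways. Genes listed for olfactory cortex were mostly lower than in frontal cortex sham libraries, and those for upper layers and layer 4 of cortex were higher. The name piriform cortex is kept here after the tissue field, and these markers do not establish it. Levels in this paragraph are in CPM (counts per mega of counts) of the library total. Slc17a7, the vesicular glutamate transporter of cortical neurons, averaged 1580 ± 216 CPM in piriform sham libraries (SD, n = 5) and 1480 ± 161 CPM in frontal sham libraries (n = 8). Of 7 genes listed for layers 1 and 2 of olfactory cortex, 2 had a higher and 5 a lower mean in piriform than in frontal cortex sham libraries. Among the lower were Reln, the secreted protein reelin, at 43 ± 9.75 CPM in piriform (n = 5) and 81.8 ± 22.9 CPM in frontal sham libraries (n = 8), Ntng1, at 15.4 ± 2.53 and 25.9 ± 8.27 CPM in those groups, and Lmo3, at 85.5 ± 17.8 and 108 ± 16.2 CPM. All 8 genes listed for upper layers and layer 4 of cortex had a higher mean in piriform sham libraries. Among them were Rorb, a layer 4 transcription factor, at 41.6 ± 13 CPM in piriform and 22.1 ± 3.61 CPM in frontal sham libraries, Cux2, at 156 ± 51.8 and 96.3 ± 18.1 CPM in those groups, and Scnn1a, at 9.03 ± 3.86 and 2.89 ± 0.801 CPM. Lhx2, at 64.8 ± 12.5 and 64.1 ± 10.3 CPM, and Pou3f1, at 33.3 ± 12.6 and 33.2 ± 9.44 CPM, were nearly equal. Of 8 genes listed for the claustrum and endopiriform nucleus, 6 were higher, with Nr4a2, a nuclear receptor, at 69.6 ± 21.3 CPM in piriform and 26.4 ± 11.5 CPM in frontal sham libraries. Rspo1, a secreted Wnt signal enhancer from the list for upper layers and layer 4, averaged 26.1 ± 12.1 CPM in piriform sham libraries (n = 5) and 7.23 ± 1.56 CPM in frontal cortex sham libraries (n = 8). Meis2, a transcription factor, averaged 84.5 ± 46.9 CPM in piriform and 308 ± 69.5 CPM in frontal sham libraries. Syt6, a synaptotagmin of deep cortical layers, averaged 20.5 ± 11.5 CPM in piriform and 75.4 ± 23.6 CPM in frontal sham libraries. Of 8 genes listed for deep layers, 3 had a higher and 5 a lower mean in piriform sham libraries. Among the higher was Tbr1, at 110 ± 28.2 CPM in piriform and 93 ± 15.9 CPM in frontal sham libraries. These differences were not tested.

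Sham replicate 1 is described first, because it holds hippocampal transcripts. C1ql2 (chromosome 1, 120340582 to 120343174 in GRCm38), a synaptic organiser of dentate granule cell axons, was at 0.637, 1.59, 1.12, 0.67 and 0.884 CPM (TMM-normalised here and below) in the burn libraries. The sham libraries had 101, 1.08, 2.36, 0.764 and 0.676 CPM, so that replicate 1 stood far above the burn range and replicate 3, at 2.36 CPM, just above it. Dsp, desmoplakin, a cell junction protein that marks dentate granule cells in mouse hippocampus, had 5, 10, 11, 2 and 3 counts in burn libraries. It had 2192 counts in sham replicate 1 and 4, 9, 6 and 6 counts in the other sham libraries, and it did not pass the count filter. Prox1, the transcription factor of granule cell identity, stood at 43.6 CPM in sham replicate 1, against 6.48 to 7.81 CPM in burn libraries and 6.37 to 7.79 CPM in the other sham libraries. As CPM of the library total, C1ql2 was at 94.2 in sham replicate 1, while hippocampal sham libraries averaged 120 ± 25.9 CPM (SD, n = 9). On that scale Dsp was at 36.4 and 28.9 ± 9.78 CPM. Genes differed in this, as Fibcd1 was at 74.7 CPM in the highest piriform library and at 180 ± 30.9 CPM in hippocampal sham libraries. The hippocampal pyramidal cell list summed to 830 CPM (TMM-normalised) in sham replicate 1, against 518 to 561 CPM after burn and 481 to 544 CPM in the other sham libraries.

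The same library was also the highest sham library for Ttr, Hbb-bs and Mbp, transcripts of choroid plexus, blood and myelin. Ttr, the thyroid hormone carrier made by choroid plexus, was at 186 CPM in sham replicate 1, at 0.546 to 6.27 CPM in burn libraries and at 0.818 to 7.69 CPM in the other sham libraries. Hbb-bs, a haemoglobin chain, was at 376 CPM there, at 74.8 to 167 CPM after burn and at 75.6 to 188 CPM in the other sham libraries. Mbp, myelin basic protein, was at 2800 CPM there, at 911 to 1590 CPM after burn and at 888 to 2190 CPM in the other sham libraries. Of 12 choroid plexus genes tested, 11 were lower after burn, with a median log2 fold change of -1.07, and without sham replicate 1 the median was 0.02 over 11 genes. The 7 haemoglobin and erythroid genes were all lower, with a median of -0.49, and without that library the median of 6 genes was 0.12. For the dentate granule cell list the median was -0.17 with all libraries and 0.02 without sham replicate 1. For many of the lists below, medians or counts without this library are given as well.

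**Figure D2:**
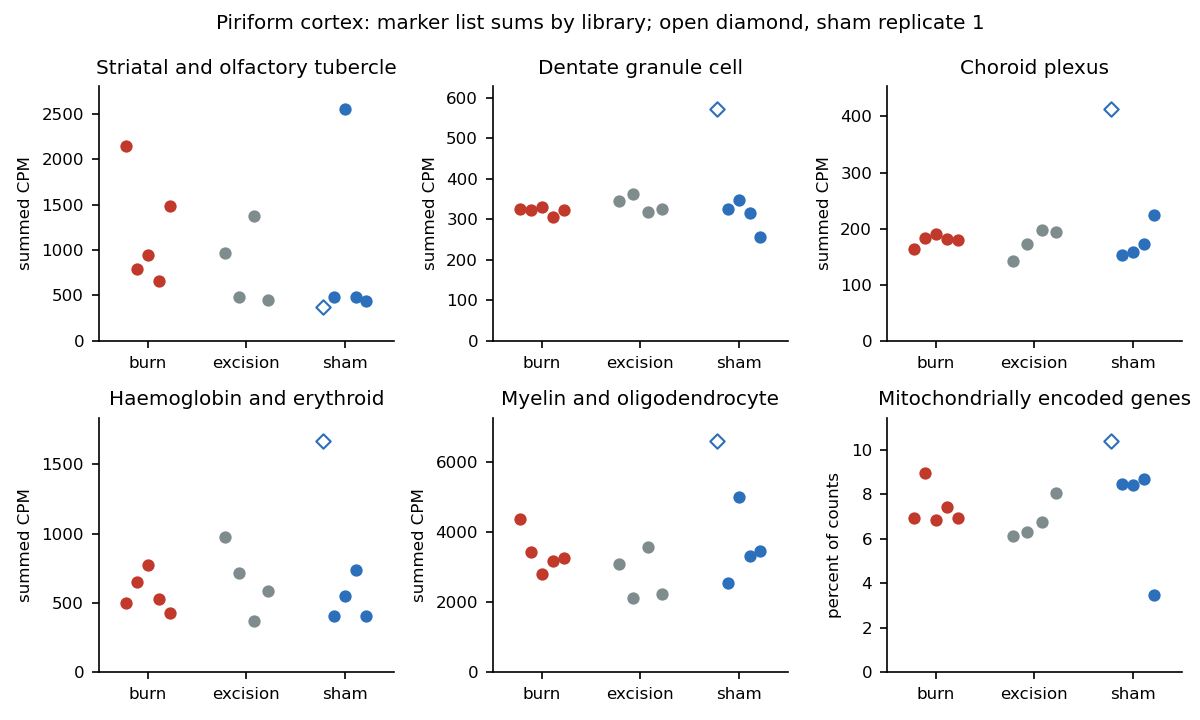
Summed CPM of 5 marker lists and the percent of counts in mitochondrially encoded genes (y axes) in each burn, excision and sham library (x axes, 1 point each), with sham replicate 1 as an open diamond. Sham replicate 1 is highest for dentate granule cell (572 CPM), choroid plexus (413 CPM), haemoglobin (1670 CPM) and myelin lists, and sham replicate 3 is highest for the striatal list (2550 CPM).

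The other marker list that varied widely was that of projection neurons of the striatum and olfactory tubercle, which adjoin the piriform cortex. Its 15 genes summed to 2140, 787, 943, 660 and 1480 CPM in the burn libraries, to 970, 479, 1380 and 454 CPM in the excision libraries, and to 368, 486, 2550, 482 and 438 CPM in the sham libraries. Every burn library thus lay above every sham library but replicate 3. Drd2, the dopamine D2 receptor of indirect pathway neurons, followed the list, with 97.3, 19.8, 24.8, 11.4 and 49.8 CPM after burn and 4.79, 4.87, 116, 2.46 and 1.35 CPM after sham. All 15 genes of the list were higher after burn, with a median log2 fold change of 0.57, and 0 of them had an unadjusted p under 0.05. Without sham replicate 3 the median was 1.70 and 13 of 15 had an unadjusted p under 0.05. Without burn replicate 1 the median was 0.13, with 13 of 15 higher, and without sham replicate 1, 2, 4 or 5 it was between 0.28 and 0.37. With sham replicates 1 and 2 both left out the median was 0.03, with 10 of 15 higher. With sham replicates 1 and 5 both left out it was 0.0, with 8 of 15 higher, and with 2 surrogate variables as covariates it was 0.95. In bulk tissue, more cells of a type and more RNA per cell cannot be told apart. With the summed level of this list as a covariate, 0 genes were called in the burn comparison, and its part in the values below was not tested beyond that fit.

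With nothing called, the 20 genes with the smallest p are given as values and not as changes. Each had a mean of at least 1 CPM and kept its sign without sham replicate 1. They split into 15 lower and 5 higher after burn, and all had an adjusted p of at least 0.884. In 11 of the 20 the burn and sham libraries did not overlap. Over all genes tested, every burn library was above every sham library for 48 genes (0.229%) and below every sham library for 47 genes (0.224%). The 20 were picked by p from the same libraries, so nothing is read from their own share.

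The gene with the smallest p was Cdc42ep4 (chromosome 11, 113726850 to 113751881), an effector of the small GTPase Cdc42 that binds septins. It stood at 22.9, 23.8, 20.6, 26.3 and 22.3 CPM in burn libraries, at 31.7, 26.5, 27.6 and 28.4 CPM in excision libraries, and at 37.8, 32.1, 34.8, 29.4 and 28.2 CPM in sham libraries. All burn libraries lay below all sham and all excision libraries. The log2 fold change was -0.49 (SE 0.09), the unadjusted p was 9.23e-05 and the adjusted p was 0.884 with edgeR, and the DESeq2 Wald test gave an adjusted p of 0.0282. Its paralog Cdc42ep2 stood at 6.05 to 9.52 CPM after burn and 9.85 to 14.8 CPM after sham, again without overlap, with a log2 fold change of -0.53 (SE 0.14). Without sham replicate 1 the log2 fold changes were -0.43 for Cdc42ep4 and -0.41 for Cdc42ep2.

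Among signalling proteins, Wnt7a (chromosome 6, 91363981 to 91411363), a secreted Wnt ligand with roles in synapse assembly and brain vessels, stood at 6.74, 8.64, 6.98, 9.4 and 8.86 CPM after burn. Excision libraries had 11.3, 10.3, 11.8 and 15.8 CPM and sham libraries had 10.2, 14.5, 12.7, 12.3 and 12.2 CPM. The 5 burn libraries were below the other 9, and the log2 fold change of burn over sham was -0.61 (SE 0.13). Of the 11 Wnt genes listed, 4 were lower and 7 higher after burn, and without sham replicate 1, 6 were lower and 5 higher. Gdf11, a ligand of the TGF-beta family, was at 10.6 to 13.1 CPM after burn and 13.4 to 16.8 CPM after sham, with a log2 fold change of -0.41 (SE 0.11). Sgk3, an endosomal kinase of the SGK family, was at 9.52 to 11.2 CPM after burn and 6.86 to 9.19 CPM after sham, with a log2 fold change of 0.36 (SE 0.10).

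Among transcriptional regulators, Atf3, a stress-induced factor of the ATF/CREB family, was at 0.812, 0.913, 0.618, 0.274 and 0.715 CPM after burn. Excision libraries had 1.2, 1.47, 1.46 and 1.52 CPM and sham libraries had 2.22, 1.99, 1.89, 1.25 and 0.755 CPM, so that sham replicate 5 alone lay within the burn range. Its log2 fold change was -1.29 (SE 0.31), from a level near 1 CPM. Sertad1, a coregulator of E2F-dependent transcription, averaged 11.1 ± 3.07 CPM after burn and 15.9 ± 1.83 CPM after sham (SD, n = 5 each). Bcorl1, a transcriptional corepressor, averaged 21.7 ± 2.93 CPM after burn and 28.0 ± 2.86 CPM after sham. Burn replicate 1 was the burn library nearest to sham for both Sertad1, at 16.3 CPM, and Bcorl1, at 26.2 CPM.

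Enzymes of lipid metabolism lay in both directions. Crot, a peroxisomal carnitine acyltransferase, was at 34.4 to 38.5 CPM after burn and 27.9 to 32.8 CPM after sham, with a log2 fold change of 0.27 (SE 0.08). Lpcat2, which makes phosphatidylcholine and platelet-activating factor, was at 8.18 to 10.7 CPM after burn and 11 to 14.4 CPM after sham, with a log2 fold change of -0.37 (SE 0.10). Neither set of ranges overlapped. Nt5dc1, a protein with a nucleotidase domain, was at 1.35, 1.41, 1.71, 1.44 and 1.49 CPM after burn, at 0.866, 1.02, 1.21 and 0.819 CPM after excision, and at 1.03, 0.807, 1.05, 0.8 and 0.577 CPM after sham, all burn libraries above all others. Slf1, a DNA repair factor, averaged 11.5 ± 1.31 CPM after burn and 8.34 ± 1.54 CPM after sham, and its ranges overlapped.

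Of genes at vessels and cell surfaces, Mcam, an adhesion molecule of vascular cells, was at 7.67 to 9.84 CPM after burn and 10.9 to 17.5 CPM after sham, and Fat4, an atypical cadherin, at 4.51 to 5.8 CPM after burn and 5.82 to 9.93 CPM after sham. Nid2, a basement membrane protein, was at 0.924 to 1.35 CPM after burn and 1.2 to 2.24 CPM after sham. The remaining 2 of the 20, C1ql2 and Lct, the lactase gene, rest on sham replicate 1. Their log2 fold changes were -4.43 and -3.13 with all libraries, and -0.32 and -0.06 without it. In 8 of the 20 genes, Plin4, Nt5dc1, Nid2 and Fat4 among them, an exon overlaps an exon of another annotated gene, and without a stated strand setting their reads cannot be told apart over those bases. The overlap was under 20 bases in 3 of the 8.

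**Figure D3:**
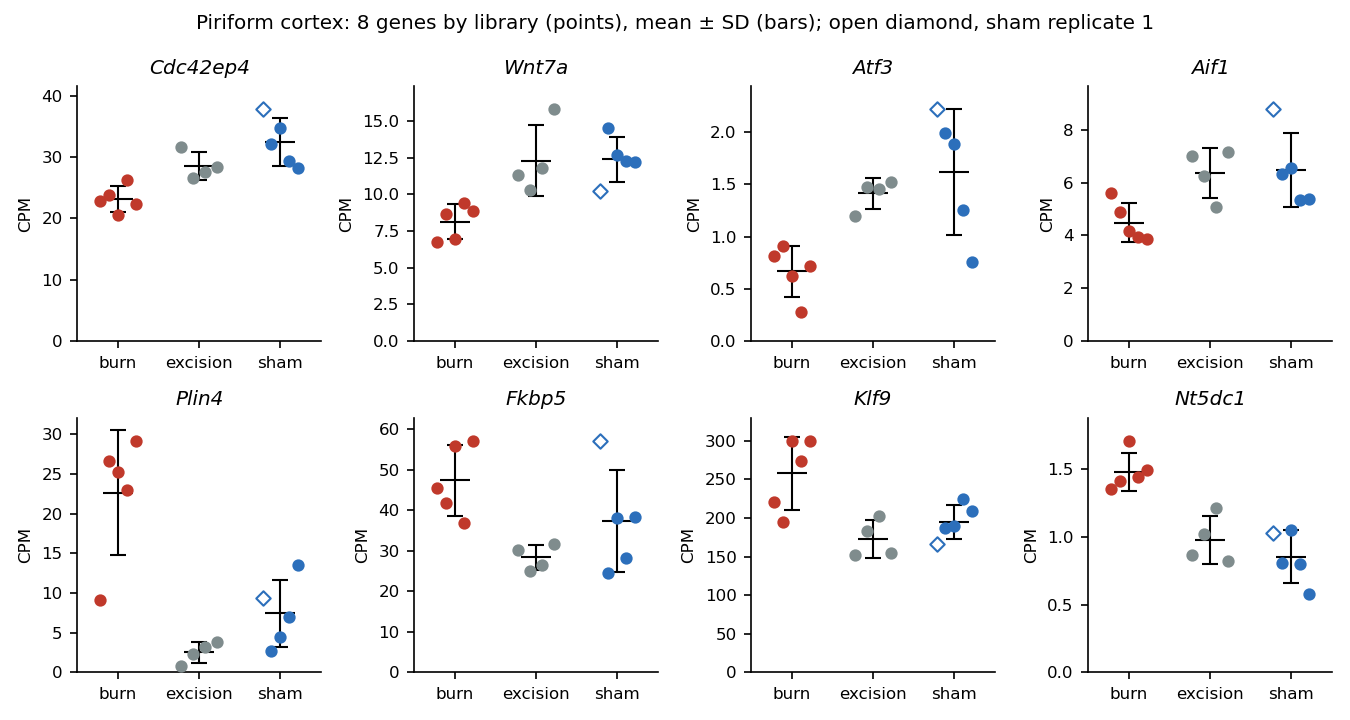
CPM (y axes, from 0) of 8 genes in each burn, excision and sham library (x axes, 1 point each), with means and SDs as bars and sham replicate 1 as an open diamond. Burn libraries lie below all sham libraries for Cdc42ep4 and Wnt7a and above all of them for Nt5dc1, while burn and sham overlap for Atf3, Aif1, Plin4, Fkbp5 and Klf9.

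Glucocorticoid-induced genes were mostly higher after burn. Of 15 listed genes, 13 had a log2 fold change above 0 (51.1% over all genes tested), with a median of 0.19 against 0.005 over all genes tested. At an unadjusted p under 0.05, 3 of the 15 were higher (2.07% over all genes tested) and 0 lower. Plin4 (chromosome 17, 56100591 to 56109803), a lipid droplet coat protein, was at 9.12, 26.7, 25.2, 23 and 29.2 CPM after burn. It was at 0.794, 2.26, 3.25 and 3.87 CPM after excision and at 9.42, 2.68, 4.48, 7.04 and 13.5 CPM after sham. Burn replicates 2 to 5 were above every other library, burn replicate 1 lay within the sham range, and no excision library was above 3.87 CPM. The log2 fold change of burn over sham was 1.62 (SE 0.42, 95% interval 0.73 to 2.5). In the alternatives its fold change ran from 1.40 to 2.27.

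Klf9, a Krüppel-like factor induced by the glucocorticoid receptor, was at 220, 195, 299, 274 and 300 CPM after burn, and at 166, 187, 189, 224 and 209 CPM after sham. Burn replicates 1 and 2 lay within the sham range and the other burn libraries above it, with a log2 fold change of 0.40 (SE 0.13). Sult1a1, a sulfotransferase, averaged 10.1 ± 2.18 CPM after burn and 6.43 ± 2.15 CPM after sham (SD, n = 5 each), and its log2 fold change was 0.65 (SE 0.23). Fkbp5, the immunophilin that restrains the glucocorticoid receptor, was at 45.4, 41.9, 55.8, 37 and 57.2 CPM after burn, at 30.3, 25.1, 26.5 and 31.7 CPM after excision, and at 57, 24.6, 38.1, 28.2 and 38.4 CPM after sham. All burn libraries were above all excision libraries, and sham replicate 1 was close to the highest burn library. The log2 fold change of Fkbp5 over sham was 0.35 (SE 0.18), and 0.55 without sham replicate 1.

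The excision libraries were also low for Tsc22d3, the glucocorticoid-induced leucine zipper, with 55.2 to 79.1 CPM, against 98.5 to 119 CPM after burn and 70.8 to 126 CPM after sham. For Sgk1, the serum- and glucocorticoid-regulated kinase, burn libraries had 83.5 to 109 CPM, excision libraries 34.4 to 81.1 CPM and sham libraries 51.7 to 121 CPM. The summed level of the 15 genes was 889 to 1060 CPM after burn, 705 to 774 CPM after excision and 733 to 1020 CPM after sham, or 733 to 892 CPM in the sham libraries other than replicate 1. Leaving out sham replicate 1 gave 14 of 15 genes higher after burn, 5 of them at an unadjusted p under 0.05, with a median of 0.28. Leaving out each library in turn gave medians between 0.09, without sham replicate 2, and 0.28, with 11 to 14 genes higher and from 3 to 5 at an unadjusted p under 0.05. Without burn replicate 5 the median was 0.12. With the striatal level as a covariate 10 of 15 were higher, 4 of them at an unadjusted p under 0.05, with a median of 0.21. With sham replicates 1 and 5 both left out, 12 were higher, 8 of the 15 reached an unadjusted p under 0.05 and the median was 0.37. None of these fits called a gene.

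**Figure D4:**
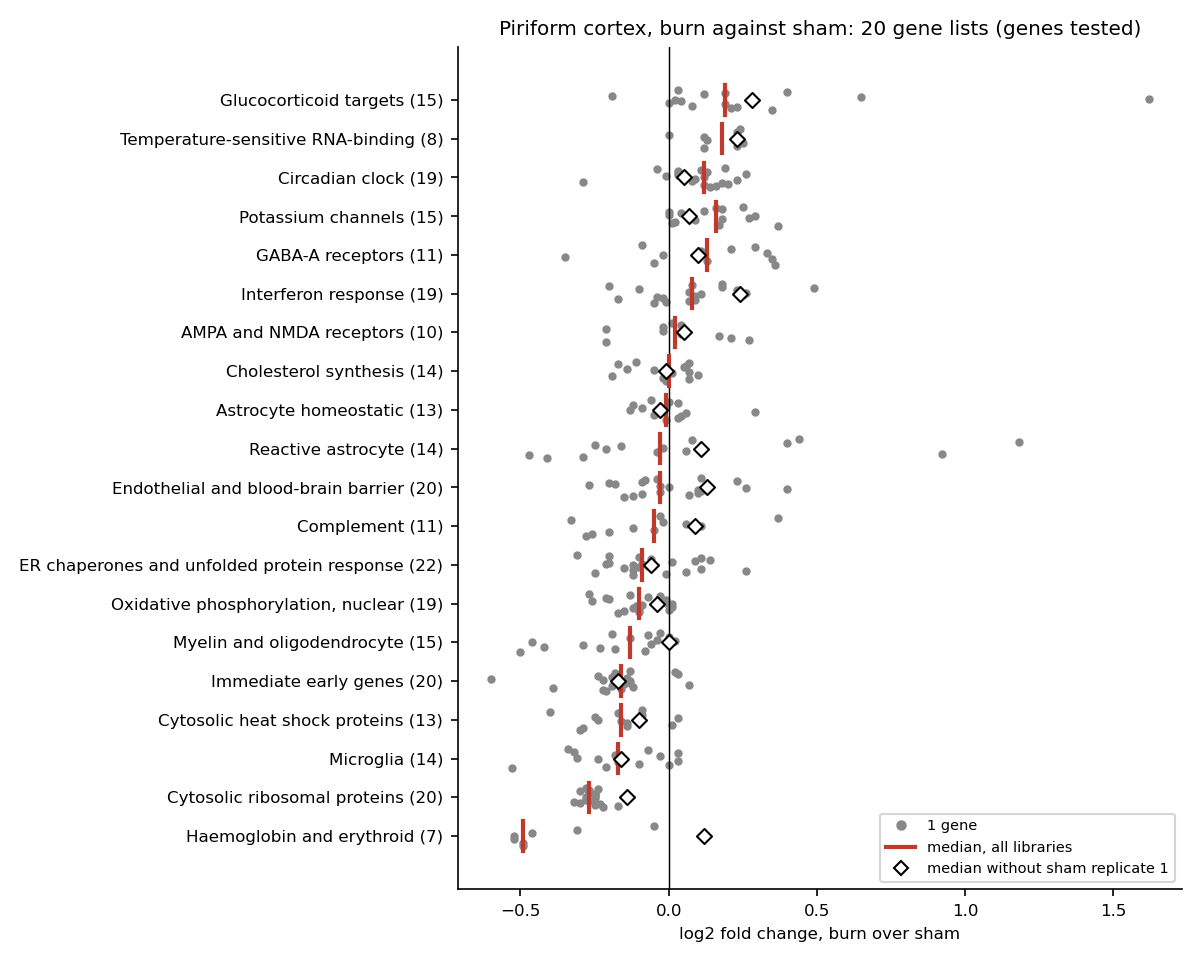
Log2 fold change of burn over sham (x axis) for each tested gene of 20 of the 46 lists (rows, grey points), with the list median over all libraries as a red line and the median without sham replicate 1 as an open diamond. Among the lists plotted, which leave out the striatal (median 0.57) and choroid plexus (-1.07) lists, glucocorticoid targets have the highest median (0.19) and the haemoglobin list the lowest (-0.49), which is 0.12 without sham replicate 1.

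Microglial genes were mostly lower after burn. Of 14 listed genes, 12 had a log2 fold change below 0 with a median of -0.17, and 5 had an unadjusted p under 0.05, all lower. Over all genes tested, 48.9% were lower, and 2.19% were lower at an unadjusted p under 0.05. Aif1, the actin-binding protein known as Iba1, was at 5.59, 4.87, 4.15, 3.94 and 3.85 CPM after burn, at 7.02, 6.24, 5.09 and 7.15 CPM after excision, and at 8.78, 6.34, 6.55, 5.33 and 5.39 CPM after sham. Burn replicates 2 to 5 were below every sham and excision library, with a log2 fold change of -0.53 (SE 0.16). Olfml3, a secreted microglial protein, averaged 22.7 ± 3.72 CPM after burn and 28.6 ± 2.63 CPM after sham (SD, n = 5 each). Fcrls, an Fc receptor-like protein of mouse microglia, was at 28.3 to 37.9 CPM after burn and 38 to 46.7 CPM after sham, without overlap. Tyrobp, the signalling adaptor DAP12, and Cx3cr1, the fractalkine receptor, had log2 fold changes of -0.31 (SE 0.13) and -0.21 (SE 0.09).

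The other microglial identity genes differed less. P2ry12, a purinergic receptor, averaged 28.9 ± 3.86 CPM after burn and 29.0 ± 4.56 CPM after sham, and Tmem119 averaged 31.8 ± 1.92 and 34.1 ± 4.56 CPM in those groups. Lcp1, an actin-bundling protein of leukocytes that is among the 20 genes above, was at 7.44 to 9.59 CPM after burn and 10.4 to 11.5 CPM after sham, with a log2 fold change of -0.35 (SE 0.09). The 14 listed genes summed to 387 to 448 CPM after burn, 394 to 496 CPM after excision and 441 to 486 CPM after sham. All 14 were lower without sham replicate 1, with a median of -0.16, and 5 had an unadjusted p under 0.05. Across the fits that left out 1 library, from 10 to 14 were lower and from 3 to 7 had an unadjusted p under 0.05. With the striatal level as a covariate 11 of 14 were lower, with a median of -0.19.

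Inflammatory genes gave few values apart from these. Of 16 cytokine and NF-kB genes tested of 20 listed, 7 were higher and 9 lower after burn, and 2 had an unadjusted p under 0.05. Of 11 complement genes, 3 were higher and 8 lower with a median of -0.05, and 0 had an unadjusted p under 0.05. Without sham replicate 1 the direction turned, with 6 higher, 5 lower and a median of 0.09, and leaving out other single libraries gave medians down to -0.24. C4b, a complement component made by glia, averaged 19.3 ± 7.65 CPM after burn and 21.1 ± 16.1 CPM after sham, with a log2 fold change of -0.12 (95% interval -1.02 to 0.77). Gfap, the intermediate filament of astrocytes, was at 134, 143, 82, 62.9 and 130 CPM after burn and at 287, 95.2, 194, 101 and 58.6 CPM after sham, with a log2 fold change of -0.41 (95% interval -1.19 to 0.37), or -0.02 without sham replicate 1. The sham range of Gfap covered the whole burn range. Of 14 reactive astrocyte genes, 6 were higher and 8 lower, with a median of -0.03, and 0 had an unadjusted p under 0.05. They were 9 higher and 5 lower without sham replicate 1, with a median of 0.11.

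Stress and activity genes leaned lower after burn. Of 20 immediate early genes, which neurons switch on within minutes of activity, 17 had a log2 fold change below 0 (48.9% over all genes tested). The median of the 20 was -0.16, and 2 were lower at an unadjusted p under 0.05 (2.19% over all genes tested). These were Nr4a3, an orphan nuclear receptor, and Jun, a component of AP-1. Nr4a3 was at 21.8, 22.2, 16.4, 20.5 and 14.1 CPM after burn, at 39.5, 39.2, 42.5 and 42.5 CPM after excision, and at 39.4, 34, 35.5, 26.6 and 8.17 CPM after sham. Every burn library was below every excision library and below 4 of the 5 sham libraries, and sham replicate 5 was lowest of all. Jun had a log2 fold change of -0.39 (SE 0.17). Fos averaged 20.1 ± 2.78 CPM after burn, 42.4 CPM after excision and 23.2 ± 8.26 CPM after sham, and Egr1, another activity-induced factor, averaged 386 ± 80.4 CPM after burn and 368 ± 71.9 CPM after sham. Bdnf, the neurotrophin, averaged 27.6 ± 1.72 CPM after burn and 32.0 ± 7.19 CPM after sham. The 20 genes summed to 1590 to 2220 CPM after burn, 1670 to 2850 CPM after excision and 1500 to 2270 CPM after sham, so the sham range held the burn range. The count was 20 of 20 lower without sham replicate 1, with 0 at an unadjusted p under 0.05. The median was -0.07 without sham replicate 2 and -0.10 without sham replicate 3, where 14 of 20 were lower, with 0 at an unadjusted p under 0.05 in both fits. It was -0.26 without burn replicate 1 and -0.29 without sham replicate 5, with 2 and 4 genes at an unadjusted p under 0.05. With sham replicates 1 and 5 both left out, 8 had an unadjusted p under 0.05 and the median was -0.33. With 2 surrogate variables as covariates 13 of 20 were lower, with a median of -0.07.

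Of 13 cytosolic heat shock genes, 11 were lower after burn (48.9% over all genes tested), with a median of -0.16. At an unadjusted p under 0.05, 3 of the 13 were lower (2.19% over all genes tested). The median was -0.10 without sham replicate 1, with 10 lower, and leaving out each library in turn gave medians from -0.22 to -0.10 and from 1 to 5 genes at an unadjusted p under 0.05. The count was 1 without burn replicate 3, sham replicate 2 or sham replicate 3. Dnajb1, an Hsp40 co-chaperone, averaged 59.2 ± 4.64 CPM after burn and 70.1 ± 9.12 CPM after sham (SD, n = 5 each). Cryab, a small heat shock protein abundant in oligodendrocytes, averaged 93.1 ± 19.6 CPM after burn and 123 ± 22.7 CPM after sham. Hsph1, an Hsp110 chaperone, averaged 283 ± 24.6 CPM after burn and 316 ± 8.74 CPM after sham. The 8 temperature-sensitive RNA-binding genes, among them the cold-induced Rbm3 and Cirbp, all had a log2 fold change of 0 or above, with a median of 0.18. Of these 8, 1, the splicing factor Srsf2, had an unadjusted p under 0.05, and 0 had every burn library above every sham library. Their summed level was 456 to 607 CPM after burn and 332 to 562 CPM after sham. Without sham replicate 1 the median of these 8 was 0.23, with 0 at an unadjusted p under 0.05. Without sham replicate 3 the median was 0.08, and without burn replicate 4 it was 0.11.

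The 20 cytosolic ribosomal protein genes were all lower after burn (48.9% over all genes tested), with a median of -0.27. At an unadjusted p under 0.05, 2 of the 20 were lower (2.19% over all genes tested). The summed level of the 20 was 3290 to 4670 CPM after burn, 4020 to 5300 CPM after excision and 3660 to 6150 CPM after sham. Sham replicates 1 and 3 were the highest sham libraries, at 6150 and 5450 CPM. Without sham replicate 1 the median was -0.14 and 0 genes had an unadjusted p under 0.05, while without sham replicate 5 the median was -0.35 and 19 of 20 did. Ribosomal protein genes have many near-identical pseudogenes, and how the authors' counting shared reads among these, or between Hspa1a and Hspa1b, is not given in the sources used here.

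Genes of the endoplasmic reticulum stress response were read because several were lower after burn in the other regions. In the piriform cortex 15 of 22 were lower, with a median of -0.09, with 1 higher and 2 lower at an unadjusted p under 0.05. Without sham replicate 1, 14 of 22 were lower with a median of -0.06, and 0 had an unadjusted p under 0.05 in either direction. Hspa5, the chaperone BiP, was at 322, 280, 245, 274 and 289 CPM after burn and at 333, 306, 322, 293 and 280 CPM after sham, with a log2 fold change of -0.12 (SE 0.09, 95% interval -0.31 to 0.07). In the hippocampus its log2 fold change was -0.41 (adjusted p = 0.0211, edgeR) and in the frontal cortex -0.42 (adjusted p = 0.0203). Creld2, a secreted disulfide isomerase induced by this response, had a log2 fold change of -0.09 (SE 0.14) in the piriform cortex, -0.52 in the hippocampus and -0.49 in the frontal cortex. Sdf2l1, a cofactor of BiP, had a log2 fold change of -0.15 (SE 0.14) in the piriform cortex, -0.60 in the hippocampus and -0.54 in the frontal cortex. Both changed sign in the piriform cortex among the alternatives, which ran from -0.19 to 0.08 for Creld2 and from -0.25 to 0.02 for Sdf2l1. For Manf, a secreted survival factor, the log2 fold change was -0.20 (SE 0.10) in the piriform cortex, -0.40 in the hippocampus and -0.37 in the frontal cortex. Manf was not called in the frontal cortex (adjusted p = 0.0738, edgeR). These frontal values follow the treatment field. With the 3 frontal libraries whose titles name another treatment grouped by title, the frontal log2 fold changes were -0.25 for Hspa5, -0.28 for Creld2, -0.22 for Sdf2l1 and -0.23 for Manf, with edgeR adjusted p from 0.452 to 0.661. The differences between regions did not pass the test: piriform minus hippocampus was 0.28 (SE 0.14) for Hspa5 and 0.42 (SE 0.15) for Creld2, each with an adjusted p of 0.78. Dbp, a clock output gene called in the hippocampus, averaged 50.5 ± 8.77 CPM after burn and 46.7 ± 14.9 CPM after sham in the piriform cortex.

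Of 20 endothelial and blood-brain barrier genes, 8 were higher and 12 lower after burn, with a median of -0.03 and 1 at an unadjusted p under 0.05. This was Mfsd2a, the endothelial lysolipid transporter, at 27.9, 36.1, 37.8, 31.9 and 33.4 CPM after burn, at 19.2, 19.5, 16.4 and 24.2 CPM after excision and at 30.6, 17.4, 22.5, 24.1 and 32.5 CPM after sham. Burn libraries were above all excision libraries and overlapped sham libraries, with a log2 fold change of 0.40 (SE 0.15). Cldn5, the main claudin of brain endothelium, averaged 9.97 ± 1.42 CPM after burn and 11 ± 4.33 CPM after sham (SD, n = 5 each). Sham replicates 1 and 5 were the highest sham libraries for the list, with sums of 391 and 405 CPM. Without sham replicate 1, 18 of 20 genes were higher, 3 had an unadjusted p under 0.05 and the median was 0.13. With sham replicates 1 and 5 both left out, 19 were higher, 7 had an unadjusted p under 0.05 and the median was 0.27. With sham replicates 1 and 2 both left out, 11 were higher and the median was 0.04. Of 15 myelin and oligodendrocyte genes, 14 were lower with all libraries, with a median of -0.13, and 8 were lower without sham replicate 1, with a median of 0.00. Mbp averaged 1180 ± 258 CPM after burn and 1660 ± 806 CPM after sham, with a log2 fold change of -0.50 (SE 0.27), or -0.22 without sham replicate 1. Of 13 homeostatic astrocyte genes 5 were higher and 8 lower, with a median of -0.01, or 4 and 9 with a median of -0.03 without sham replicate 1.

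The burn effect was next compared with that of the other regions, in a fit over all 71 libraries. Since no batch holds the piriform cortex and another region, a difference between these regions and one between batches cannot be told apart. Piriform minus hippocampus gave 3 called genes of 23526 tested (0.0128%). Dsp and C1ql2 had differences of -6.08 and -4.13 on the log2 scale, and both rest on sham replicate 1. The third was Ngp, a granule protein of neutrophils, with a difference of 9.48 (SE 1.89). Its piriform levels were 0.103 ± 0.139 CPM after burn and 0.0457 ± 0.0658 CPM after sham, against 0.00655 ± 0.0146 CPM in hippocampal burn and 4.47 ± 13.2 CPM in hippocampal sham libraries, in CPM of the library total. In hippocampal sham libraries Ngp ran from 0 to 39.6 CPM with a median of 0.0792 (n = 9), and the next highest library was at 0.148 CPM. Without the library at 39.6 CPM, left out after its value was seen, the difference was 4.39 (SE 1.50, adjusted p = 0.732, edgeR). The Ngp call was also lost without burn replicate 2 or 3 and without sham replicate 1, 2 or 3 of the piriform cortex. Without piriform sham replicate 1, 0 genes were called in this difference. Piriform minus frontal cortex gave 0 called genes of 23526 (0%) with edgeR, and 1160 genes (4.93%) at an unadjusted p under 0.05. It gave 3 called genes without sham replicate 2, 4 or 5, each time Lct, C1ql2 and Dsp, the transcripts high in sham replicate 1, and 1 without sham replicate 1, Ninl, with a difference of -0.95. Without sham replicate 3, the library high in striatal markers, it gave 17 called genes, 12 with a difference above 0 and 5 below. The 5 were Lct, C1ql2 and Dsp again, Hunk at -1.01 and Ninl at -0.90, and the 12 included Rxrg at 2.80, Tacr1 at 2.37, Gpr139 at 3.49 and Syndig1l at 3.18, named after their values were seen.

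Genes called elsewhere were then read in the piriform cortex, in libraries that the 2 other comparisons did not use. The hippocampus had 202 called genes of 19574 tested (1.03%), and the frontal cortex 59 of 21077 (0.28%). The frontal calls rest on the treatment field. By that field 2 frontal libraries titled sham are burn and 1 titled burn is excision, and grouped by title the frontal cortex had 0 called genes of 20880 with edgeR, with 2098 at an unadjusted p under 0.05 and a smallest adjusted p of 0.111. Of the 57 genes higher after burn in the hippocampus, 42 (73.7%) were higher in the piriform cortex, where 51.1% of all genes were, with a median of 0.10 here and 0.33 there. Of the 145 genes lower in the hippocampus, 88 (60.7%) were lower here, where 48.9% of all genes were, with medians of -0.03 here and -0.40 there. Without sham replicate 1, 41 (71.9%) of the 57 were higher here and 67 (46.2%) of the 145 were lower, with medians of 0.08 and 0.01. Over all genes in that fit, 53% were higher and 47% lower. Of 33 tested genes that were higher in the frontal cortex, 27 (81.8%) were higher here, with medians of 0.13 here and 0.56 there, and of 25 that were lower, 24 (96%) were lower here, with medians of -0.12 and -0.47. These counts were, without sham replicate 1, 24 of 33 (72.7%) and 19 of 25 (76%). None was called here. Genes of 1 list can move together, and the mice behind each region are not stated, so these shares are descriptions.

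**Figure D5:**
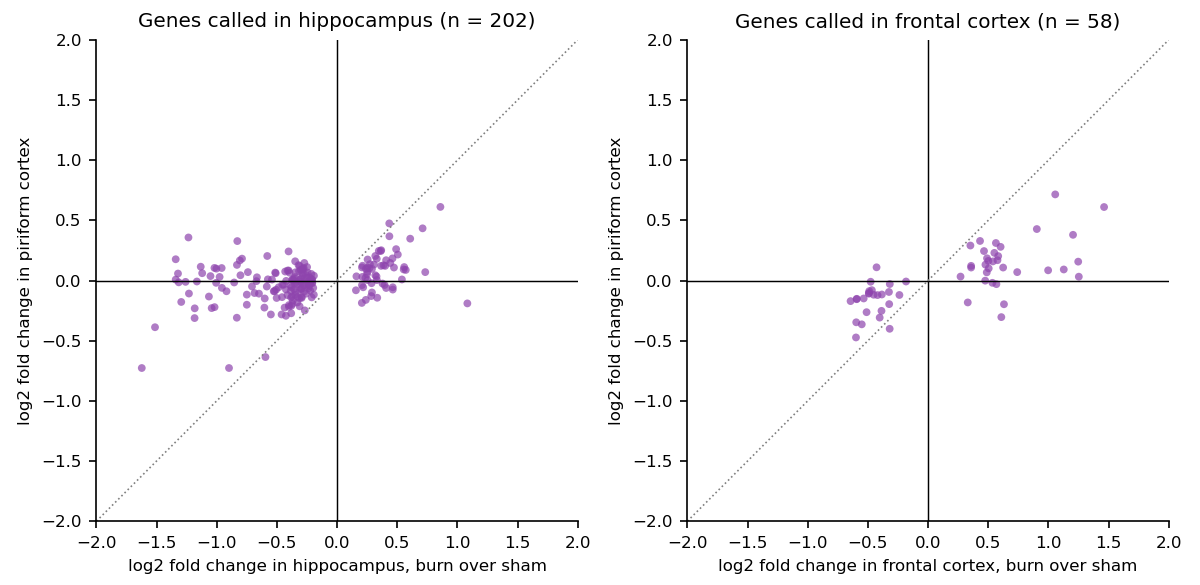
Log2 fold change of burn over sham in the piriform cortex (y axes) against that in the hippocampus (left, 202 genes called there) and the frontal cortex (right, 58 of the 59 called there), 1 point per gene, with a dotted line of equal change. The genes were chosen for their change in the other region, where their values had to be away from 0, and their medians in the piriform cortex are 0.10 and -0.03 for those higher and lower in the hippocampus and 0.13 and -0.12 for those of the frontal cortex.

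The genes with the largest changes elsewhere had piriform values between -0.73 and 0.61 on the log2 scale, with standard errors up to 0.80. In the hippocampus these were Dgkk, Rad51ap2 and Wnt9a among the higher and Khdc3, Gm28294 and Adam8 among the lower genes. Rad51ap2 had a log2 fold change of 0.61 (SE 0.27) in the piriform cortex and 0.86 in the hippocampus. Wnt9a, a Wnt ligand, had 0.07 (SE 0.19) in the piriform cortex, 0.73 in the hippocampus and 0.74 in the frontal cortex, and Adam8, a metalloprotease of leukocytes, had 0.01 (SE 0.22) in the piriform cortex and -1.34 in the hippocampus. Dgkk, a diacylglycerol kinase, had -0.19 (SE 0.80), Khdc3 had -0.73 (SE 0.57) and Gm28294 had -0.39 (SE 0.37). For the frontal cortex the largest were Gm14340, Usp43, A930002C04Rik, Map3k19, Hist1h2bp and Hist1h2bl. Usp43, a ubiquitin protease, had 0.03 (SE 0.24) here and 1.25 there, and Hist1h2bp, a histone gene with near-identical copies whose counts are uncertain, had -0.47 (SE 0.25) here and -0.60 there. The other 4 lay between -0.35 and 0.61 here, with standard errors of 0.17 to 0.65.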

How the data were processed

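Total RNA from mixed brain tissue was sequenced single-end at 100 bp. The authors deposited raw counts per gene and library in 1 table for the 71 libraries, with 55416 Ensembl identifiers and 0 rows that are not genes. FastQC 0.11.3, fastp, STAR, DESeq2 1.24.0 and build GRCm38 are named in the submitters' processing notes. Which program counted reads, on which annotation release and with which strand setting, is not given in the sources used here. Gene symbols and coordinates came from GENCODE M21, a GRCm38 annotation, which named 52083 of the identifiers, holding 99.2% of piriform counts.

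Groups followed the treatment field and regions the tissue field. The members and gene lists were chosen with earlier results of these data known. Replicate numbers follow accession order and pair nothing. The 14 piriform libraries were fitted together in edgeR 4.0.16 under R 4.3.3 (TMM, filterByExpr on treatment groups, quasi-likelihood F test), with Benjamini-Hochberg adjustment over all genes tested and calls under 0.05. Excision libraries shared the estimate of the spread. Differences of the burn effect between regions were contrasts in a fit of all 71 libraries with region and batch terms. The piriform libraries are 1 batch of their own. CPM are TMM-normalised unless given per library total. Since fewer than 5 genes were called, the rule took the 20 smallest p with a mean of at least 1 CPM, a symbol and the same sign without sham replicate 1. Aif1, Gfap, Bdnf, C4b, Fos, Fkbp5, Cldn5, Mbp, Hbb-bs, Ttr, Hspa5, Creld2, Manf, Sdf2l1 and Dbp were read whatever their p, and for each other region the 3 largest called genes in each direction. Other list members were named after their values were seen, mostly those at an unadjusted p under 0.05. List medians are descriptions with no test.

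All 26 pairs of piriform libraries within a group differed beyond counting error (0 identical, lowest chi-square per degree of freedom 14.3). The pipeline was tested on simulated counts with known changes. The alternatives tried were the DESeq2 1.42.0 Wald test, DESeq2 size factors in edgeR, no filter on counts, the 10 burn and sham libraries alone, 2 surrogate variables from sva 3.50.0, the title number as a block, sham replicate 2 left out or grouped by its title, mitochondrial genes left out or their share as a covariate, and each library left out. Sham replicates 1 and 2 were also both left out. Added after seeing the data were sham replicates 1 and 5 both left out, the striatal level as a covariate, the frontal groups taken from the titles and 1 hippocampal sham library left out.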

Additional observations from a re-analysis of the deposited data

Results flagged for a closer look

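The highest or lowest library of each group was set against the spread of the others for the named genes, 9 list sums and the mitochondrial share, in 138 groups of values, of which chance alone flags about 1 in 20. It stood apart in 13, of which 9 were sham replicate 1. C1ql2, Dsp, Prox1 and the dentate list were chosen to describe that library, and Lct was picked by a p that rests on it. These items can also vary together, so the 9 are not set against the chance rate. In that library C1ql2 was at 101 CPM, Lct at 49.8, Dsp at 38.9, Prox1 at 43.6, Ttr at 186 and Cldn5 at 18.6 CPM, against at most 2.36, 1.66, 0.158, 7.79, 7.69 and 10.4 CPM in the other sham libraries. Its dentate granule cell list summed to 572 CPM, its choroid plexus list to 413 CPM and its haemoglobin list to 1670 CPM.

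Sham replicate 3 had a striatal list sum of 2550 CPM, against 368 to 486 CPM in the other sham libraries. Sham replicate 5 had a mitochondrial share of 3.47%, against 8.4 to 10.4% in the other sham libraries. Burn replicate 2 had a mitochondrial share of 8.95%, against 6.86 to 7.44% in the other burn libraries. Burn replicate 4 had a dentate list sum of 305 CPM, against 324 to 330 CPM in the other burn libraries.

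The burn effect differed between piriform cortex and hippocampus, by the interaction test of edgeR, for Dsp (-6.08), C1ql2 (-4.13) and Ngp (9.48), as differences of log2 fold change, and without sham replicate 1 for none of them. The Ngp call was also lost without 1 hippocampal sham library that held 39.6 CPM, against at most 0.148 CPM in the others.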

How the results depend on the processing

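In every edgeR setting 0 genes were called between burn and sham, with the smallest adjusted p between 0.148 and 1, and the DESeq2 Wald test called 1. Genes at an unadjusted p under 0.05 numbered 896, but 1770 with no count filter, 1457 with sham replicates 1 and 5 both left out and 1727 with the striatal level as a covariate. They ran from 355 (without burn replicate 3) to 1799 (without sham replicate 5) as each library was left out, with 1782, 545 and 568 without burn replicates 1, 4 and 5 and 1529 without sham replicate 4. Without sham replicate 1 the split was 423 higher and 258 lower, against 435 and 461 with all libraries, and with 2 surrogate variables 755 and 420. Title numbers were shared by 4 pairs of burn and sham libraries, whose deviations from the group means correlated between -0.12 and 0.28. Of these sham libraries, 1 correlated best with its own number. So few pairs cannot settle whether the numbers pair the libraries, and the main fit used no pairing. With these numbers as a replicate block and sham replicate 2 left out, 0 genes were called and 2522 had an unadjusted p under 0.05, against 1119 with sham replicate 2 left out and no block. The difference of the burn effect from the hippocampus gave 0 to 5 called genes as each piriform library was left out (0 without sham replicate 1, 5 without sham replicate 5), and that from the frontal cortex 0 to 17. Of the 20 genes, 19 kept 1 sign under all 23 alternatives, and Lct was 0.04 with sham replicates 1 and 5 both left out. The 20 were picked by p in these same libraries and for their sign without sham replicate 1, so this count is no test of them. With treatment taken from titles the frontal cortex had 0 called genes, against 59 by the treatment field. The causes were not tested. Depth was at least 46.8 M counts per library.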

Other observations

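Lists of neuronal channel and receptor genes held 0 called genes. Over all genes tested, 51.1% were higher after burn, and 53% without sham replicate 1. Of 10 AMPA and NMDA receptor genes 6 were higher and 4 lower after burn, with a median log2 fold change of 0.02, and 1 had an unadjusted p under 0.05, which was lower. Without sham replicate 1, 8 were higher and 2 lower, with a median of 0.05. Of 15 potassium channel genes 14 were higher, with a median log2 fold change of 0.16, and 1 had an unadjusted p under 0.05. This was Kcnd2, the channel subunit of fast dendritic A-type currents, which averaged 66.3 ± 11.5 CPM after burn and 54.8 ± 3.00 CPM after sham (SD, n = 5 each). Of the 15, 10 were higher without sham replicate 1, with a median of 0.07. Of 11 GABA-A receptor subunits 7 were higher, with a median of 0.13, or 9 with a median of 0.10 without sham replicate 1, and Gabra4 alone had an unadjusted p under 0.05, at 65.3 to 103 CPM after burn and 45.0 to 80.2 CPM after sham. Of 19 circadian clock genes 16 were higher, with a median of 0.12, and without sham replicate 1 the median was 0.05.

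Interferon-induced genes gave 10 of 12 higher after burn with a median of 0.14, and 12 of 12 with a median of 0.27 without sham replicate 1. In both fits 0 of them had an unadjusted p under 0.05. With the 7 signalling genes added, 12 of 19 were higher with a median of 0.08, and 17 of 19 with a median of 0.24 without sham replicate 1. Ifi44 had a log2 fold change of 0.49 and Rsad2 of 0.23. Of 14 cholesterol synthesis genes 7 were higher and 7 lower, with a median of 0.00, or 6 and 8 with a median of -0.01 without sham replicate 1.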
